A study of Saccharomyces cerevisiae with 4 samples.

Results

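The 35 genes described here encode the enzymes that build, attach and remodel the glycosylphosphatidylinositol (GPI) anchor of budding yeast, the 6 Pmt protein O-mannosyltransferases and 4 p24 proteins that carry GPI-anchored proteins out of the endoplasmic reticulum (ER). They were chosen by name and function, not by their measured values, though earlier results of these data were known. Of the 35, 34 were found on the arrays by common name. TED1 has no common name in the array annotation and was found through its RefSeq systematic name, YIL039W. All 35 were among the 5738 genes on the arrays, and 25 of them had a usable value on all 4 arrays, as did 4295 genes in all.

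The experiment asks which mRNAs come down with Whi3, a protein that binds RNA and holds back the cyclin Cln3 in G1, and whether they do so through its RNA recognition motif (RRM). Whi3 tagged with TAP (a tag that binds IgG beads through its protein A part) was immunoprecipitated from a WHI3-TAP strain, and the same tagged protein without its RRM from a whi3-dRRM-TAP strain served as the background control (the Whi3-dRRM-TAP or control arrays). Both strains were W303, expressed the protein from the endogenous promoter and were harvested in log phase in YPD at 30 °C. Each strain gave 2 arrays that the labels call biological replicates, 1 from each of 2 experiments, and neither the labels nor the methods say whether more than 1 clone of a strain was used. On each array, immunoprecipitated RNA (Cy3) was hybridised with total RNA of the same strain (Cy5), so every value below starts as a log2 ratio of immunoprecipitate over total RNA.

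A GPI anchor is a glycolipid made on the ER membrane in a fixed order: N-acetylglucosamine (GlcNAc) is placed on phosphatidylinositol and deacetylated, the inositol is acylated, mannoses and ethanolamine phosphates are added, and a transamidase moves the finished lipid onto a protein. Enzymes of the ER then remodel the anchor, which lets the p24 complex gather the protein into COPII vesicles. In yeast many GPI-anchored proteins end up in the plasma membrane or are linked to the cell wall. Protein O-mannosylation also starts in the ER, where Pmt complexes take mannose from dolichol phosphate mannose, the same donor that the GPI mannosyltransferases use.

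The arrays were not equally good. GenePix gave no negative flag to 79.8% and 86.5% of yeast spots on Whi3-TAP arrays 1 and 2 and to 46.4% and 76.7% on Whi3-dRRM-TAP arrays 1 and 2. For the 212 spots of the 35 genes the shares were 84.4%, 89.6%, 43.9% and 78.8% in the same order. Signal in a channel counted as above background where the mean of a gene's usable spots exceeded 2 SDs of the local background. Of the 4295 genes, 89.0% and 99.3% reached that level in the Whi3-TAP immunoprecipitates, while 16.6% and 65.5% did in the controls. Total RNA gave 66.3%, 64.7%, 26.3% and 64.5%. Whi3-dRRM-TAP array 1 therefore stood apart, and values without it are given beside the main results. The study's methods give the strains as mating type a, and of the 5 a-cell genes STE2 and BAR1 were above background in total RNA of every array, STE6 on 3 arrays, MFA2 on 2 and MFA1 on 0, while the 4 alpha-cell genes were on 0. The WHI3 probe covers the whole gene and could not check the RRM deletion. Its log2 ratios of immunoprecipitate over total RNA were 0.09 and 0.16 in Whi3-TAP and -0.12 and -0.03 in Whi3-dRRM-TAP.

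**Figure D1:**
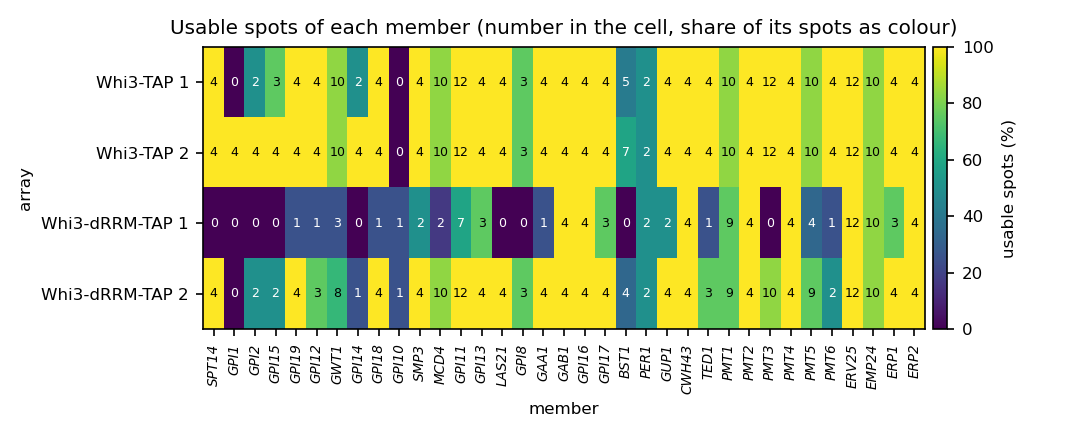
Usable spots of the 35 genes (columns, ordered by role) on the 4 arrays (rows). The number in each cell counts the spots with no negative flag, and the colour gives them as a percent of the gene's spots. On Whi3-dRRM-TAP array 1, 9 genes had no usable spot.

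In each experiment the control's log2 ratio was subtracted from that of Whi3-TAP, and the mean of both differences is called the net log ratio. GPI18, the enzyme that adds the second mannose of the anchor, stood highest among genes whose experiments were alike, at 1.47 ± 0.49 (SD, n = 2 experiments). The O-mannosyltransferases PMT2 (0.92 ± 0.20) and PMT4 (0.61 ± 0.12) and the p24 gene ERP2 (0.55 ± 0.03) were positive in both experiments. The p24 gene ERP1 (-0.70 ± 0.11) and the remodelling enzyme PER1 (-0.59 ± 0.02) were negative in both. TED1 had the largest mean, 2.31 ± 2.69, but its experiments gave 4.21 and 0.41, and the first rested on 1 spot.

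None of the 25 genes passed an adjusted p of 0.05 in the blocked limma fit in either direction, and neither did any of the 4295 genes (0% in each direction). Before adjustment, at a p below 0.05, 4 of the 25 were higher (GPI18, PMT2, PMT4 and ERP2) beside 12.8% of all genes, and 2 were lower (ERP1 and PER1) beside 16.5%. With no replicate block limma also called 0 of the 25 in each direction, where 71 of the 4295 genes passed as higher and 61 as lower. The study drew its limit a fixed number of SDs above the mean over genes, which here was -0.08 with an SD of 0.68. That put the limit at 1.05, and GPI18 and TED1 were past it, 2 of 25 beside 5.01% of all genes. Below the mirror limit of -1.21 lay 0 of 25, beside 5.05%. The nearest gene inside the upper limit was PMT2. The GPI18, TED1 and PMT2 values ranked 80, 10 and 297 of 4295.

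The set as a whole sat a little to the positive side. Its median net log ratio was 0.28, beside -0.09 over all genes, with medians of 0.06 in experiment 1 and 0.22 in experiment 2. Without TED1 the median was 0.23. Of the 25 genes, 13 were positive in both experiments, beside 32.4% of all genes, and 6 were negative in both, beside 41.2%. The Whi3-TAP arrays did not overlap the Whi3-dRRM-TAP arrays for 16 genes, 10 with Whi3-TAP higher beside 26.6% of all genes and 6 with Whi3-TAP lower beside 34.2%. No test of the list as a whole was made. Between experiments the 25 net log ratios correlated at Pearson r = 0.375 and Spearman rho = 0.559, and at 0.590 and 0.582 without TED1, beside 0.629 and 0.622 for all genes. These are descriptions across genes that share the same 4 arrays.

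Whi3-dRRM-TAP array 1 enters every mean above. Without it, the mean of both Whi3-TAP arrays minus Whi3-dRRM-TAP array 2 had a median of 0.15 over the 25 genes, beside -0.06 over all genes. Both Whi3-TAP arrays were then higher than the remaining control for 15 genes, beside 38% of all genes, and lower for 7, beside 45.7%. GPI17 alone of the 25 changed sign, to -0.13, beside 649 of the 4295 genes. Both estimates share the Whi3-TAP arrays and Whi3-dRRM-TAP array 2, so most signs would be kept in any case. GPI18 had 1.80, PMT2 0.73, PMT4 0.46 and ERP2 0.51, and ERP1 had -0.75 and PER1 -0.56. GPI19 lay at 0.00 and PMT6 at 0.11, while MCD4 (0.79), GPI11 (0.65), GPI13 (0.63), GAA1 (0.62) and SMP3 (0.70) were higher than with the array.

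Small values depended on the scaling of the arrays. Under median centring the median of all genes was -0.21, and GPI19, GWT1, MCD4, GAA1, GPI16 and PMT1 changed sign. In the deposited series matrix, where it was -0.48, 10 of the 22 genes with values changed sign (these without PMT1, and also SMP3, GPI11, GPI13, GPI17 and GUP1). Under print-tip loess none did.

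**Figure D2:**
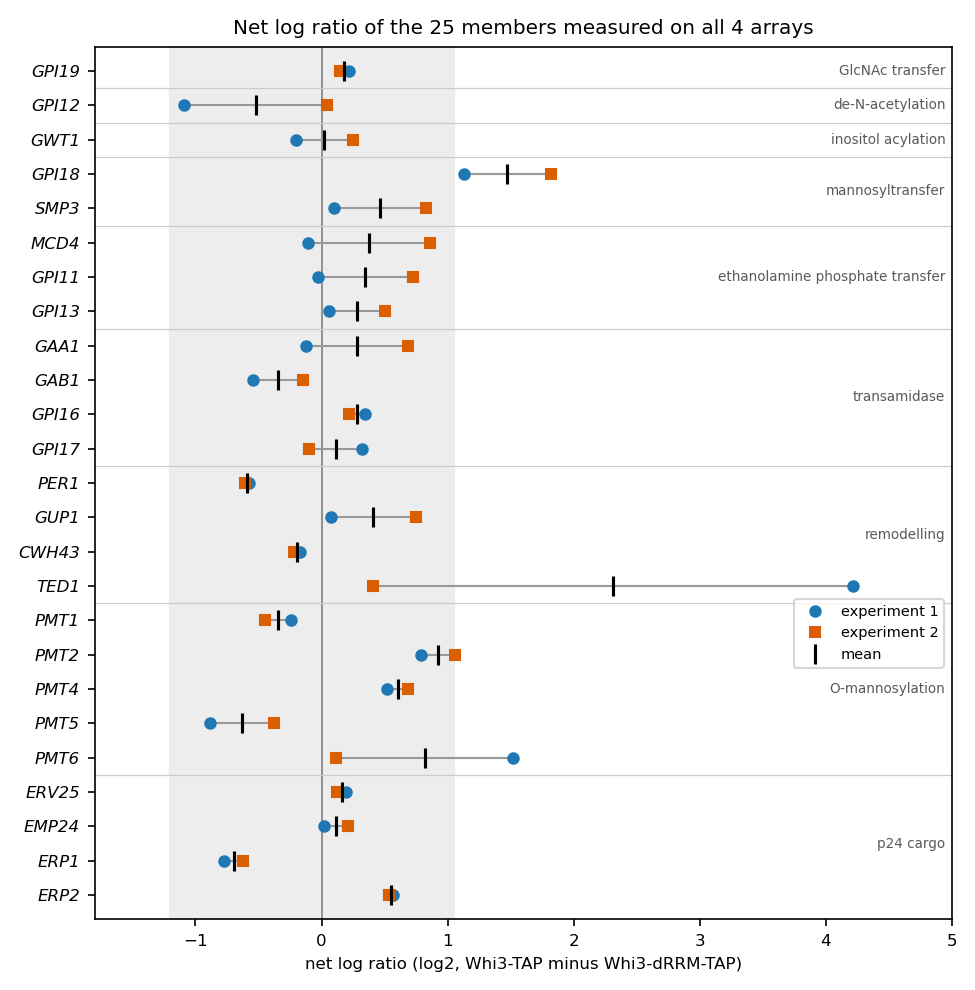
Net log ratio (log2, Whi3-TAP minus Whi3-dRRM-TAP) of the 25 genes measured on all 4 arrays, grouped by role. Circles are experiment 1, squares experiment 2 and bars their mean, and the grey band spans the SD limits of -1.21 and 1.05. Of the 25 means, those of GPI18 and TED1 lie outside the band, and the TED1 points are the farthest apart.

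The first step, the transfer of GlcNAc to phosphatidylinositol, was the least well measured. Of its 5 subunit genes, SPT14 (the catalytic subunit), GPI1, GPI2 and GPI15 lacked a usable spot on at least 1 array, and GPI19 alone was complete. GPI19 had ratios of 0.47 and 0.76 in Whi3-TAP and 0.25 and 0.62 in Whi3-dRRM-TAP, with a net log ratio of 0.18 ± 0.05. The groups overlapped, and its Whi3-dRRM-TAP array 1 value came from 1 spot.

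GPI12, which removes the acetyl group from GlcNAc, was 1 of 3 genes in the set whose experiments lay over 1 log2 unit apart (11.6% of all genes did). Its ratios were -0.26 and -0.04 in Whi3-TAP and 0.83 and -0.09 in Whi3-dRRM-TAP. The high value was 1 spot on Whi3-dRRM-TAP array 1, where 3 flagged spots ranged from -0.20 to 1.11. The net log ratio was -0.52 ± 0.80 (adjusted p = 0.367 in limma) and -0.06 with that array left out. GWT1, which acylates the inositol ring, had a net log ratio of 0.02 ± 0.32.

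GPI18 was the clearest case in the set. It adds the second mannose to the anchor, and its ratios were 1.61 and 1.64 on the Whi3-TAP arrays, with 0.48 and -0.18 on the controls. Both Whi3-TAP arrays were higher than both controls, by 1.13 in experiment 1 and 1.82 in experiment 2. Every usable Whi3-TAP spot, from 1.22 to 1.96, was above every usable control spot, from -0.46 to 0.48. The control value in experiment 1 was 1 usable spot at 0.48, and the 3 flagged spots of that array lay between -0.67 and 0.47. CLN3, whose mRNA Whi3 is known to bind, had a net log ratio of 1.48.

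GPI18 mRNA was above background in both Whi3-TAP immunoprecipitates and in neither control, but the background limits differed. They were 477 and 347.5 on Whi3-TAP arrays 1 and 2 and 1880 and 1398.5 on control arrays 1 and 2. The GPI18 signal above local background was 1348 and 6407 in Whi3-TAP and 620 and 1366 in the controls. Before normalisation, control array 2 thus read about as high as Whi3-TAP array 1. Averaged over both arrays of each strain, the normalised immunoprecipitate signal of GPI18 was at least 1.85-fold higher in Whi3-TAP. This bound raises the gene on each control array to its own background limit there. Such bounds use channel signals after loess and Aquantile and stay open to dye bias, since no dyes were swapped. They do not subtract total RNA, which was 0.23 higher (log2) in Whi3-TAP for GPI18, beside 0.31 over all genes. The adjusted p of the net log ratio was 0.0750 in the blocked limma fit and 0.0568 with no replicate block. It passed the threshold when background was not corrected (net log ratio 1.17, adjusted p = 0.0141 in limma), when flagged spots were kept (1.67, adjusted p = 0.00015) and when the median of the spots was taken (1.53, adjusted p = 0.0347). Median centring gave 0.92 (adjusted p = 0.176). With no block, it also passed without control array 1 (1.80, adjusted p = 0.0127) and without control array 2 (1.14, adjusted p = 0.00723), the lone control being taken to vary like the other pair. The alternatives together gave adjusted p values of 0.00015 to 0.459. In total RNA, GPI18 was above background on array 2 of each strain and on neither array 1.

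The other mannosyltransferases varied. SMP3, which adds the fourth mannose, was high in both strains, at 0.81 and 1.06 in Whi3-TAP and 0.71 and 0.24 in Whi3-dRRM-TAP. The groups did not overlap, and the net log ratio was 0.46 ± 0.52. GPI10 (the third mannose) gave no usable spot on either Whi3-TAP array, and 2.38 and 0.73 from 1 spot each on the Whi3-dRRM-TAP arrays. GPI14 (the first mannose) lacked Whi3-dRRM-TAP array 1 and had -0.66 and -0.73 in Whi3-TAP and 0.35 in Whi3-dRRM-TAP. On the arrays the GPI14 probe overlaps YJR012C by 37 bases, and double-stranded probes do not separate strands. No other gene of the set overlapped a neighbour in that annotation.

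**Figure D3:**
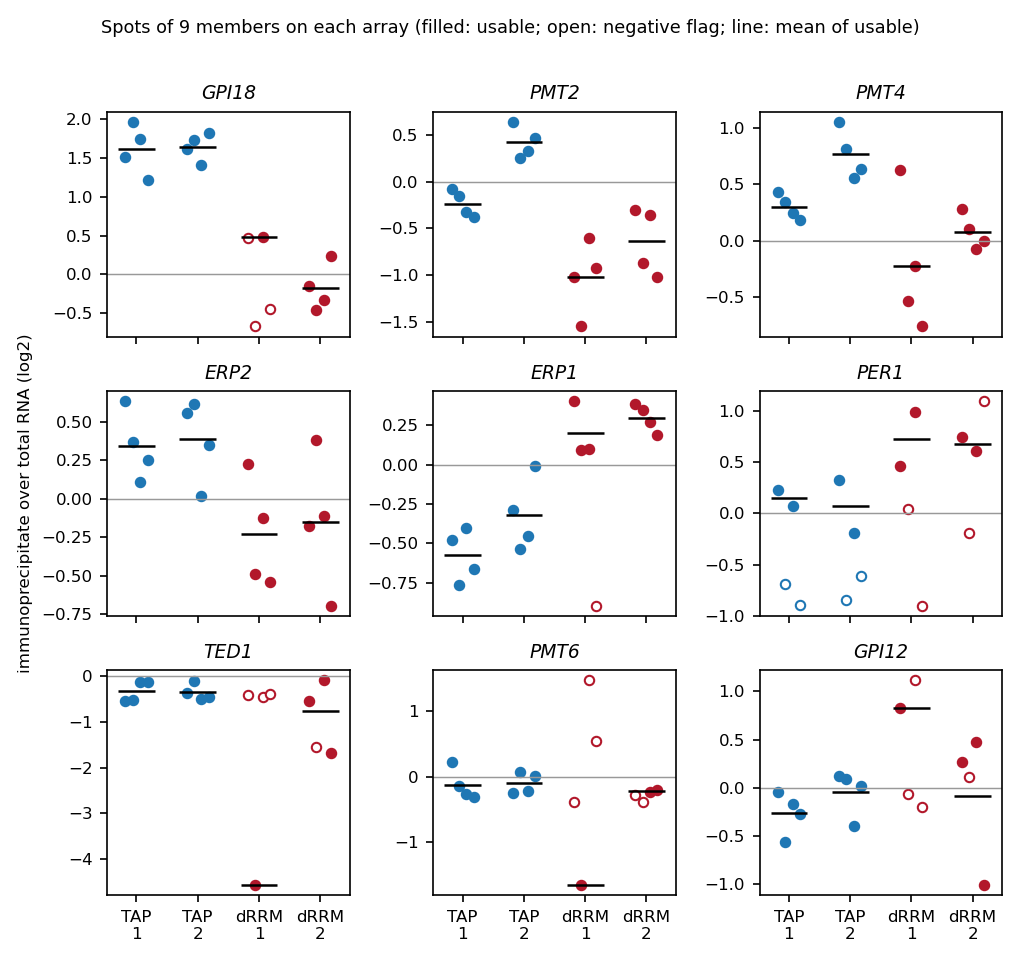
Log2 ratio of immunoprecipitate over total RNA of each spot of 9 genes on the 4 arrays (TAP, Whi3-TAP; dRRM, Whi3-dRRM-TAP), each panel with its own scale. Filled points are usable spots, open points carry a negative flag and were left out, and lines are the mean of usable spots. For GPI18 every Whi3-TAP spot lies above every Whi3-dRRM-TAP spot, and for TED1 the value of Whi3-dRRM-TAP array 1 is 1 spot at -4.55, with 3 flagged spots from -0.45 to -0.39.

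The 3 measured ethanolamine phosphate genes had similar means. MCD4, which modifies the first mannose, had a net log ratio of 0.38 ± 0.68, GPI11 0.35 ± 0.53 and GPI13, which modifies the third mannose with Gpi11, 0.28 ± 0.32. All 3 means lay above the median of all genes, but experiment 1 gave -0.11, -0.03 and 0.06, and experiment 2 gave 0.86, 0.73 and 0.51, so the spread between experiments was larger than each mean. MCD4 and GPI11 were above background in both Whi3-TAP immunoprecipitates and in neither control, where their background limits were again higher. Averaged over both arrays of each strain, their normalised immunoprecipitate signal was at least 1.25-fold and 1.52-fold higher in Whi3-TAP. For MCD4 this bound came from experiment 2. In experiment 1 its Whi3-TAP signal lay below that of the control raised to its background limit. Their total RNA was also higher there, by 0.50 and 0.48 (log2) beside 0.31 over all genes, and the bounds do not subtract this. The net log ratios of MCD4 and GPI11 had adjusted p values of 0.459 and 0.436 in limma. LAS21, which modifies the second mannose, had a value in experiment 2 alone, 0.15.

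The transamidase complex joins the anchor to the protein, with GPI8 as its catalytic subunit. Its 4 measured subunit genes had net log ratios of 0.28 ± 0.57 (GAA1), 0.28 ± 0.09 (GPI16), 0.11 ± 0.30 (GPI17) and -0.35 ± 0.28 (GAB1). GAB1 was lower in Whi3-TAP on both arrays, at -0.06 and 0.18 against 0.48 and 0.33. GPI16 was positive in both experiments, yet its groups overlapped.

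Among the remodelling genes, PER1, which helps to remove a fatty acid from the anchor lipid, had ratios of 0.16 and 0.07 in Whi3-TAP and 0.73 and 0.68 in Whi3-dRRM-TAP. The groups did not overlap, and the net log ratio of -0.59 ± 0.02 had an adjusted p of 0.154 in limma. Each PER1 value averaged 2 usable spots of 4, and with flagged spots kept it was -0.68 (adjusted p = 0.0489). Over the alternatives its adjusted p ran from 0.0489 to 0.702. CWH43, which takes part in adding ceramide to the anchor, was negative in both experiments (-0.19 ± 0.03). GUP1, which adds a long fatty acid to it, was positive in both (0.41 ± 0.48). BST1, which removes the inositol acyl chain, was measured in experiment 2 alone, at 0.44.

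TED1, which removes an ethanolamine phosphate before the p24 complex takes the protein, had ratios of -0.34 and -0.36 in Whi3-TAP and -4.55 and -0.77 in Whi3-dRRM-TAP. The value of -4.55 was 1 usable spot, with an immunoprecipitate signal of 125.0 and a total RNA signal of 1804.0 above local background. Total RNA of TED1 was 398.0, 1166.0 and 1305.7 on the other arrays, Whi3-TAP 1 and 2 and Whi3-dRRM-TAP 2. The 3 flagged spots on the same array gave -0.45 to -0.39. With flagged spots kept, its net log ratio was 0.82 (adjusted p = 0.0208 in limma) in place of 2.31 (adjusted p = 0.202). It was 0.57 with no background correction and 0.42 when control array 1 was left out, and over the alternatives its adjusted p ran from 0.000173 to 0.662. Its signal was above background in 1 Whi3-TAP immunoprecipitate and in neither control, and no fold can be given, since the Whi3-TAP mean lay below the control limit.

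The PMT genes spread over both sides. PMT2 had ratios of -0.23 and 0.42 in Whi3-TAP and -1.02 and -0.64 in Whi3-dRRM-TAP, each from 4 usable spots. On control array 1 its signal was below the background limit in both channels. It was 692.5 against 1473 in the immunoprecipitate and 954 against 1013 in total RNA. Both Whi3-TAP arrays were higher than both controls, by 0.79 and 1.06 within the experiments. The adjusted p was 0.0931 in the blocked limma fit and 0.145 with no replicate block. It was 0.0471 when dim genes were left out, 0.0392 with at least 2 usable spots required on every array and 0.0101 with flagged spots kept, each time at a value of 0.92. With no block it was 0.73 (adjusted p = 0.178) without control array 1 and 1.11 (adjusted p = 0.0239) without control array 2, and the alternatives together gave 0.0101 to 0.696. In the deposited series matrix the value was 0.37, and with no background correction 0.52.

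PMT4, whose product acts as a pair of Pmt4 molecules, had ratios of 0.30 and 0.76 in Whi3-TAP and -0.22 and 0.08 in Whi3-dRRM-TAP, each from 4 usable spots. Its immunoprecipitate signal on control array 1 was below the background limit (1319 against 1424.5). The groups did not overlap, and the net log ratio of 0.61 had an adjusted p of 0.153 in limma. PMT1, whose product pairs with Pmt2, lay on the other side, at 0.03 and 0.23 against 0.27 and 0.68, a net log ratio of -0.35 ± 0.15 that was 0.14 under median centring. PMT5 did too, at -0.07 and -0.11 against 0.82 and 0.26, or -0.63 ± 0.36 (adjusted p = 0.178 in limma). Whether PMT1 and PMT2 differed from each other was not tested. The Pmt proteins are related in sequence, and whether these probes read one another's mRNA was not tested either.

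PMT6 gave the pattern of TED1 in milder form. Its ratios were -0.13 and -0.10 in Whi3-TAP and -1.65 and -0.22 in Whi3-dRRM-TAP, and the low value was 1 spot on an array whose 3 flagged spots lay between -0.39 and 1.46. The net log ratio was 0.82 ± 0.99 (adjusted p = 0.251 in limma), 0.11 when control array 1 was left out and 0.00 with flagged spots kept. PMT3 had no usable spot on that array and gave 0.25 in experiment 2. Separate probes for the 3′ UTRs of 2 PMT genes gave other values than the coding probes. The PMT3 3′ UTR probe read 1.22 and 0.60 in Whi3-TAP, where the coding probe read -0.46 and -0.22. In Whi3-dRRM-TAP it read -1.84 from 1 spot and 0.11, and the coding probe read -0.47 on array 2. The PMT2 3′ UTR probe read -0.27 and -0.59 in Whi3-TAP and -1.01 on Whi3-dRRM-TAP array 2. Its immunoprecipitate signal was above background on Whi3-TAP array 2 alone. Neither the coding nor the 3′ UTR probe of PMT3 was above background in a control immunoprecipitate.

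EMP24 and ERV25, whose products are core subunits of the complex, had 10 and 12 usable spots per array, and their signal exceeded the background limit in both channels of all 4. EMP24 had ratios of 0.44 and 0.56 in Whi3-TAP and 0.42 and 0.35 in Whi3-dRRM-TAP, and ERV25 0.04 and -0.09 against -0.16 and -0.21. Their net log ratios were small, 0.11 ± 0.13 and 0.16 ± 0.05. The other two subunit genes lay on opposite sides. ERP1 had -0.58 and -0.32 in Whi3-TAP and 0.20 and 0.30 in Whi3-dRRM-TAP, and ERP2 had 0.34 and 0.38 against -0.23 and -0.15. Neither pair of groups overlapped, and the experiments repeated closely, with net log ratios of -0.77 and -0.62 for ERP1 and 0.57 and 0.54 for ERP2. On Whi3-dRRM-TAP array 1, however, ERP1 was below the background limit in both channels and ERP2 in the immunoprecipitate. Their adjusted p values in limma were 0.128 and 0.169.

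Taken within each strain, ratios of immunoprecipitate over total RNA keep any dye effect, since Cy3 always held the immunoprecipitate. In Whi3-TAP, GPI18 (1.63 ± 0.02, SD, n = 2 arrays, adjusted p = 0.0111 in limma) and SMP3 (0.93 ± 0.18, adjusted p = 0.0272) were higher than 0, 2 of 25 beside 10.4% of all genes, and 0 of 25 were lower beside 8.94%. Both calls were lost when either Whi3-TAP array was left out, with adjusted p values of 0.220 to 0.378 from an arm of 1 array, while the ratios themselves were 1.61 and 1.64 for GPI18 and 0.81 and 1.06 for SMP3. Before adjustment, 6 were higher at a p below 0.05 beside 19.1% of all genes and 1 was lower beside 17.2%. In Whi3-dRRM-TAP, PER1 (0.70 ± 0.04, adjusted p = 0.0281) was higher, 1 of 25 beside 13.6% of all genes, and PMT2 (-0.83 ± 0.27, adjusted p = 0.0461) was lower, 1 of 25 beside 9.22%. At the unadjusted level 6 were higher beside 23.5% and 3 were lower beside 16.6%. The PER1 call was lost with median centring (0.30), with flagged spots kept (0.35) and, through the adjusted p alone (0.112 and 0.116), without either Whi3-TAP array. The PMT2 call was lost with no background correction (-0.45), with the median of the spots (-0.79), in the series matrix (-0.26), without the first control array (-0.64) and, at adjusted p values of 0.0955 and 0.0994, without either Whi3-TAP array. The medians over the 25 genes were 0.13 in Whi3-TAP and 0.09 in Whi3-dRRM-TAP, beside 0.00 and 0.06 over all genes.

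**Figure D4:**
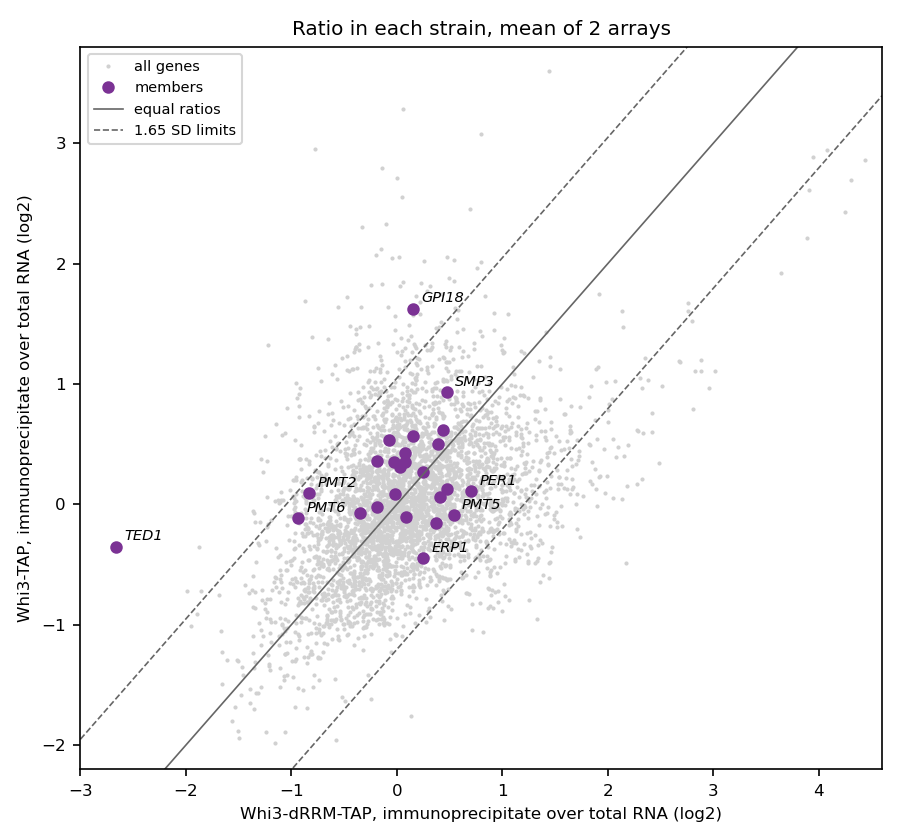
Mean log2 ratio of immunoprecipitate over total RNA in Whi3-TAP (vertical axis) and Whi3-dRRM-TAP (horizontal axis), n = 2 arrays each. Small points are the 4295 genes and large points the 25 genes of the set, the solid line marks equal ratios and the dashed lines the SD limits. GPI18 lies above the upper line through a high Whi3-TAP ratio (1.63), and TED1 lies above it through a low Whi3-dRRM-TAP ratio (-2.66).

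Fewer of the 25 genes were detected in the control immunoprecipitates, as was so for all genes. Their background limits were higher on the control arrays than on the Whi3-TAP arrays, so detection alone does not compare amounts. Of the 25, 24 were above background in both Whi3-TAP immunoprecipitates, TED1 being the exception, beside 88.6% of all genes. In contrast, 9 reached that level in neither control (GPI12, GWT1, GPI18, MCD4, GPI11, GAA1, TED1, PMT5 and PMT6), beside 33.4%. The same 9 were dim on Whi3-dRRM-TAP array 2 taken alone, beside 34.5%. Total RNA of 7 genes (GPI19, GPI12, GWT1, SMP3, GAA1, PMT5 and PMT6) was above background on no array, beside 27.2%, so their ratios rest on a dim denominator. No gene of the set was saturated in an immunoprecipitate. The median SD between spots of a gene within an array was 0.17 and 0.22 on Whi3-TAP arrays 1 and 2 and 0.51 and 0.34 on Whi3-dRRM-TAP arrays 1 and 2.

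Total RNA of the strains was compared to see whether the input itself differed. In cultures measured in bulk, fewer cells with an mRNA and less of it per cell cannot be told apart. The Cy5 level of the 25 genes had a median difference, Whi3-TAP minus Whi3-dRRM-TAP, of 0.38, beside a shift of 0.31 over all genes. None of the 25 passed an adjusted p of 0.05 in limma in either direction, beside 1.91% of all genes higher and 0.0931% lower. Before adjustment, at a p below 0.05, GPI16 was higher (0.66, adjusted p = 0.267), 1 of 25 beside 15.1%, and TED1 was lower (-0.99, adjusted p = 0.0509), 1 of 25 beside 0.536%. TED1 differed by -2.12 in experiment 1 and 0.14 in experiment 2, and the first used the single spot described above. For GPI18 the experiments gave 0.59 and -0.12, for PMT2 0.56 and -0.08, and for ERP1 0.86 and 0.17. A larger difference in experiment 1 than in experiment 2 was seen for most of the 25 genes, so it was not particular to these.

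The 10 genes without a value on every array cannot enter these counts. Of them, 9 lacked Whi3-dRRM-TAP array 1, and 8 lacked that array alone. Those 8 had a difference in experiment 2. GPI2, a GlcNAc transfer subunit, was highest at 1.11, with ratios of 0.40 in Whi3-TAP and -0.71 in Whi3-dRRM-TAP, the latter from 2 usable spots of 4. GPI14 was lowest at -1.07, where the control value was 1 spot. The others were -0.26 (SPT14), 0.04 (GPI15), 0.13 (GPI8), 0.15 (LAS21), 0.25 (PMT3) and 0.44 (BST1). GPI1 had 1 array, Whi3-TAP array 2, at 0.06.

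A further 38 genes of the same pathways were listed: GPI synthesis and remodelling, supply of dolichol-linked mannose, extension of O-linked mannose, the remaining p24 genes and the COPII coat with its cargo receptors. Of these, 37 were on the arrays and 32 had a value on all 4. In the blocked limma fit 0 passed in either direction, as for all genes. With no replicate block 2 were higher and 1 was lower, beside 71 and 61 of the 4295 genes. The median net log ratio of the 32 was 0.08, beside -0.09 over all genes. Above the upper limit lay 3 of 32, beside 5.01% of all genes, and below the lower 2, beside 5.05%. ERV29, a receptor for soluble cargo in COPII vesicles, had 1.35 and 2.04 in the 2 experiments. KRE2, which extends O-linked mannose in the Golgi, had 1.57 and 1.61, and SEC31, a subunit of the outer COPII coat, 1.25 and 1.19. SEC59, the dolichol kinase, lay at -2.29 and -1.73. PGA1, which acts with Gpi18, had -3.64 and 1.06, and its Whi3-dRRM-TAP array 1 value was 1 spot.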

How the data were processed

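RNA was measured on spotted double-stranded DNA arrays, which do not separate strands, after oligo-dT priming. Per the file headers, each file holds foreground and background intensity per spot and channel and the percent of saturated pixels. The deposited log2 ratio per spot, scaled by the authors' database, is total RNA over immunoprecipitate and served as a check. The deposited series matrix holds log2 ratios that the authors corrected for background, normalised by loess and averaged over spots. It ran as immunoprecipitate over total RNA (r = 0.757 to 0.952 with the scanner ratios), was not centred (column medians 0.25, 0.21, 1.08 and 0.52 for Whi3-TAP 1 and 2 and Whi3-dRRM-TAP 1 and 2) and was an alternative. No genome build is named, so no positions are printed.

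Intensities were corrected by normexp (offset 50) and loess in limma 3.58.1 (R 4.3.3), with negatively flagged spots left out and the spots of a probe averaged. Net log ratios were tested with lmFit and eBayes (2-sided, Benjamini-Hochberg over 4295 genes) with the experiment as a block, which left 1 residual degree of freedom beside 3.17 from the prior (2 and 3.63 with no block). Deviations of same-numbered arrays from their group means correlated at r = 0.218. Each strain's ratio was tested against 0 with no block, and total RNA in Cy5 after Aquantile scaling, with the block. The code was tested on simulated data. SDs cover 2 arrays or experiments, whose number limits the precision.

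Values array by array were planned for genes past an SD limit, with an unadjusted p under 0.05 or with experiments over 1 log2 unit apart, and those of SMP3, PMT1, PMT5, GAB1, GPI19, EMP24 and ERV25 were added after they had been seen. The genes, lists and tests were chosen with earlier results of these data known. Alternatives covered background correction, flags, spot averaging, normalisation, dim genes, the block, the prior and each array left out. At least 2 usable spots, TED1 left out, the values of every gene without Whi3-dRRM-TAP array 1 and the bound at a gene's own background limit were added after seeing the data.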

Additional observations from a re-analysis of the deposited data

Results flagged for a closer look

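For 4 genes both Whi3-TAP arrays lay on one side of 0 and both Whi3-dRRM-TAP arrays on the other, in the log2 ratio of immunoprecipitate over total RNA. They were ERP1 (net log ratio -0.70, adjusted p = 0.128 in the blocked limma fit), PMT5 (-0.63, adjusted p = 0.178), ERP2 (0.55, adjusted p = 0.169) and CWH43 (-0.19, adjusted p = 0.546). The blocked fit tests the difference between the strains itself, and none of the 4 passed. The zero of each ratio is set by loess within an array, so the side of 0 is relative to the other genes of that array.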

How the results depend on the processing

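Of the counts and medians under alternatives, 89 stayed close to the value reported (counts within 1.5 times, the median within 0.09, the SD between experiments) and 52 moved further. Fits with an array left out also had no block, so that they changed both choices at once. For alternatives other than no replicate block, the share of all genes passing was not computed. The counts below can therefore follow a change in calls over all genes, which was not tested. Above the SD limit lay 2 genes, against 1 with no background correction (GPI18), 1 with TED1 left out (GPI18) and 1 with median centring. The last was TED1 (1.96), with GPI18 at 0.92. The count was 0 in the series matrix (where GPI18 and TED1 lack a value on every array), with dim genes left out and with at least 2 usable spots on every array. Below the lower limit lay 0, against 1 in the series matrix. In the blocked fit 0 genes passed higher, against 3 with flagged spots kept and 1 each with no background correction, the median of the spots, dim genes left out and at least 2 usable spots (0 to 4 with an array left out). Lower, 0 passed, against 1 with flagged spots kept and 2 in the series matrix (0 to 2). The replicate block changed no call among the 25 genes: 0 passed higher and 0 lower with no replicate block. The median of the 25 genes minus that of all genes was 0.36, against 0.27 with no background correction, 0.19 with flagged spots kept, 0.26 with the median of the spots, 0.12 in the series matrix (where the all-gene median was -0.48), 0.21 with at least 2 usable spots and 0.17 to 0.40 with an array left out. In Whi3-TAP, 2 genes passed higher, against 7 with no background correction, 4 with flagged spots kept and 1 in the series matrix (0 to 7 with an array left out), and 0 lower, against 1 with no background correction and 1 with flagged spots kept (0 to 3). In Whi3-dRRM-TAP, 1 gene passed higher, against 5 with median centring and 10 in the uncentred series matrix (0 to 4), and 1 lower, against 2 with flagged spots kept, 2 with median centring and 0 with the median of the spots and in the series matrix (0 to 3). In total RNA 0 passed lower, against 1 with no background correction (0 to 1). Single genes were followed for the net log ratios of GPI18, TED1, PMT2, PMT4, PMT6, GPI12, ERP1, ERP2 and PER1. The called ratios within a strain were followed too (GPI18 and SMP3 in Whi3-TAP, PER1 and PMT2 in Whi3-dRRM-TAP). Of these 165 single-gene values under alternatives, 136 kept direction and side of the threshold, 15 passed it anew, 14 lost it and 0 changed sign. That 0 does not extend to the whole set, where 6 of 25 genes changed sign under median centring and 10 of 22 in the series matrix. Without Whi3-dRRM-TAP array 2, the net log ratio was 1.14 for GPI18, 4.20 for TED1, 1.11 for PMT2, 1.54 for PMT6 and -0.98 for GPI12. The values of GPI18, TED1, PMT6 and GPI12 then rested on 1 control spot each. With an array left out, its partner was taken to vary like the other pair. A count of the GCAU motif in coding sequences, planned beside these values, was not run, and the causes of the changes were not tested.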
